A study of Mus musculus with 136 samples.

Results

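The thyroid of mice injected with 131I at 9:00 a.m. was compared with the thyroid of mice injected with physiological saline at the same hour. The samples were taken by their labelled tissue, injection and time of day, which gave 8 of the 130 tissue samples of the series, 4 replicates after 131I and 4 after saline. They were measured on 9 of the 136 arrays, because saline replicate 3 had 2 arrays, whose mean was used. The study asked whether the hour of injection alters how the thyroid and 5 other tissues respond to 131I at the level of transcripts. The treated mice were female BALB/c nude mice, 9 months old, that received 90 kBq 131I into the tail vein, and their tissues were excised after 24 h. The control mice had the same strain, sex, age and hour of injection, and received saline alone. Nude mice lack a thymus, so both groups were short of T cells. The mice were kept several to a cage, and on the day of injection each experimental group was given its own cage. An effect of the cage therefore cannot be told apart from 131I. Each replicate was 1 thyroid sample of total RNA, and nothing in the labels gave the array slide or scan of a sample, so a difference between arrays that followed the groups cannot be told apart from 131I.

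131I emits beta particles and is concentrated by thyroid follicular cells through the sodium-iodide symporter, for use in hormone synthesis on thyroglobulin. The gland lies against the trachea and larynx, below the submandibular salivary glands and under the strap muscles of the neck. Mouse submandibular glands are rich in duct cells that store tissue kallikreins and growth factors, whereas strap muscles are striated muscle in which fast fibres contract through their own set of myosins, troponins and calcium pumps.

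The defining genes of the thyroid were looked for first. Thyroglobulin (Tg), the symporter Slc5a5, the transcription factors Pax8 and Foxe1, the oxidase Duox2, the deiodinases Dio1 and Iyd and the iodide exporter Slc26a4 were not above background on any of the 9 arrays, nor on any of the 23 thyroid arrays of the series. Nkx2-1 was above background on 1 of the 9 arrays and the thyrotropin receptor Tshr on 7 of 9. Tshr was above background on 18 of the 23 thyroid arrays and on 2 of 113 arrays of other tissues. Hhex and Cpq were above background on all 9, as they were on all 113 arrays of other tissues. Tg was above background on 8 of those 113 arrays. The parathyroid hormone gene Pth was above background on no thyroid array. Of the thyroid markers, Tshr alone was thus detected mainly in the thyroid arrays, and the samples are called thyroid samples here because that is their label. Whether the probes for these genes work was not tested. In bulk tissue, fewer cells of a type and less RNA per cell cannot be told apart, and this holds for each cell type list below.

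Between 37.5% and 42.1% of probes were above background on the 9 arrays. The replicates of a group resembled each other unequally. Over tested probes, 131I replicate 1 correlated with 131I replicates 2 to 4 at 0.909 to 0.926, against 0.966 to 0.982 among those 3. Saline replicate 3 correlated with the other saline replicates at 0.95 to 0.961, against 0.975 to 0.983 among those 3, and its 2 arrays correlated at 0.981. Correlations of a 131I with a saline replicate were 0.762 to 0.887. These replicates were kept, and each replicate was also left out in turn.

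Values below are log2 intensities after background correction and quantile normalization, which ran between 4.15 and 14.86 over these arrays, so that a gene near 4.3 was at background and one near 14.5 was close to the top of the scale. A probe was called regulated at an adjusted p-value under 0.01 by limma with a fold-change of at least 1.5. Of 12144 probes tested, 1495 (12.3%) were regulated, 517 (4.26%) up and 978 (8.05%) down after 131I. They represented 1203 (14.1%) of 8558 genes, with 422 (4.93%) up and 781 (9.13%) down. These shares are the background for the counts of gene lists that follow, as is the median log2 difference of 0.09 over all tested genes. Median scaling in place of quantile normalization gave a median over probes of 0.31, in place of 0.08, and 636 probes up and 600 down. The fold-change reached 2 for 1070 of the regulated probes.

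The number of regulated probes depended on single replicates. It was 816, 630 and 338 without 131I replicates 2, 3 and 4, 814 without saline replicate 4, and 0 without saline replicate 3, where the smallest adjusted p was 0.0114 and 3809 probes had an unadjusted p under 0.05. At an adjusted p under 0.05, a setting chosen after seeing that count, 1810 probes were regulated without saline replicate 3, of which 1438 were among the 1495. In the fit of all 6 thyroid groups, leaving out saline replicate 3 therefore ended every call of 131I against saline at the 0.01 threshold. The counts without it are given at 0.05 in the paragraphs below. A limma fit of the 2 compared groups alone without that replicate, also chosen afterwards, called 903 probes at 0.01, with a smallest adjusted p of 1.48e-10. It called 12 kallikrein 1 genes and 0 fast muscle genes. Of 148 regulated genes chosen by the naming rule, 26, 70, 81 and 109 lost their call without 131I replicates 1 to 4, and 44, 47 and 65 without saline replicates 1, 2 and 4. The error term was shared over all 6 thyroid groups, since each group was small.

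Among the gene lists, the largest median difference was in the kallikrein 1 family, serine proteases whose genes lie in a cluster on chromosome 7. All 12 tested members fell after 131I, each with 131I replicates at background on every array, and their median log2 difference was -8.34, or -7.77 with each at its bound. Klk1, the ancestral tissue kallikrein, which releases kinin from kininogen, was 4.24, 4.33, 4.56 and 4.40 in the 131I replicates, against 14.63, 14.46, 14.26 and 14.60 in the saline replicates. The levels of the 2 groups were at opposite ends of the scale. Because the 131I level was at background, the size is a bound, taken against the dimmest probe above background on each array, and Klk1 was at least 720-fold lower (limma, adjusted p = 0.00427). Klk1b26 was 4.47, 4.52, 4.66 and 4.28 after 131I and 14.28, 14.26, 14.51 and 13.82 after saline, at least 597-fold lower (adjusted p = 0.0033). Klk1b22, a protease first named for binding epidermal growth factor, was 4.36, 4.44, 4.75 and 4.45 after 131I and 13.82, 14.03, 14.44 and 13.39 after saline, at least 485-fold lower (adjusted p = 0.00337). In these 2 genes too, no replicate of a group approached the other group.

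Klk1b8, Klk1b27, Klk1b5, Klk1b9, Klk1b24, Klk1b16, Klk1b11 and Klk1b21 followed in that order, from at least 330-fold lower after 131I for Klk1b8 to at least 103-fold for Klk1b21, with adjusted p between 0.00293 and 0.00349. In each of them saline replicate 3 was the highest, as in Klk1b27, at 4.39, 4.21, 4.26 and 4.34 after 131I and 12.64, 12.89, 14.33 and 12.34 after saline. Klk1b1 had the smallest difference of the family, at 4.52, 4.28, 4.21 and 4.29 after 131I and 8.02, 8.47, 11.87 and 8.03 after saline, at least 17.2-fold lower (adjusted p = 0.00347). Its saline replicate 3 stood more than 3 log2 units above the others. Egfbp2, another EGF-binding kallikrein outside the list, was at least 457-fold lower (adjusted p = 0.00331). Members of the family are near-identical in sequence, so signal may be shared between their probes and the members are not independent. The study had drawn attention to this family in these samples, so its count is not independent evidence. The summed intensity of the 12 probes was 243 to 256 in the 131I replicates and 81200 to 195000 in the saline replicates. All 12 were called without 131I replicate 1, 3 without 131I replicate 4, and 12 at an adjusted p under 0.05 without saline replicate 3.

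The promoters of 5 members are printed to show what these genes share next to their starts. RefSeq windows of 250 bases before the start were available for all 12, between positions 43950416 and 44225409 of chromosome 7 (GRCm38.p6). The TATA-like motif TTTAAA, searched on both strands, was in 10 of 12 windows (83.3%), all but Klk1 and Klk1b21, against 13.7% of the windows of all 27025 genes and 4 of 18 (22.2%) of the salivary list. It began 17 to 44 bases before the start. Over the motif and the 30 bases before it, 16 to 36 of 36 bases were identical among the 45 pairs of the 10 promoters. A match is only a description of the letters. Each line gives the last 100 bases before the start, 5′ to 3′ on the + strand, with the motif in capitals, at chr7:44112573-44112672 for Klk1b22, chr7:44012578-44012677 for Klk1b26, chr7:43950566-43950665 for Klk1b8, chr7:44137190-44137289 for Klk1b16 and chr7:43966651-43966750 for Klk1b1.
Klk1b22: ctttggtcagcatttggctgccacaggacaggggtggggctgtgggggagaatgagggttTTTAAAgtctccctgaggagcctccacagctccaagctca
Klk1b26: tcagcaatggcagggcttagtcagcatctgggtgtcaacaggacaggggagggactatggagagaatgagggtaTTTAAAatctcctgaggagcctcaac
Klk1b8: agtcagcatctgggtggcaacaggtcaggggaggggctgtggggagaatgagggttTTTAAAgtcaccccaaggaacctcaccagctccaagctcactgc
Klk1b16: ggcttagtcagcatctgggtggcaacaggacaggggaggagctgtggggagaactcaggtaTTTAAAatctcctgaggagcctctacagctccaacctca
Klk1b1: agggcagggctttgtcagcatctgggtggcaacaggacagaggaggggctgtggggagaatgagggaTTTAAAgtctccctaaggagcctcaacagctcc

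Other secreted proteins of salivary glands were lower as well. Of 18 tested members of that list 12 fell, none rose, and the median log2 difference was -6.01, or -5.37 with bounds. The summed intensity of the list was 1780 to 2790 after 131I and 139000 to 182000 after saline. The submandibular mucin-like protein Mucl2 was 4.89, 4.71, 4.33 and 4.27 after 131I and 14.74, 14.79, 14.64 and 14.66 after saline, and the proline-rich protein Prol1 was 4.36, 4.61, 4.46 and 4.43 after 131I and 14.55, 14.74, 14.74 and 14.53 after saline. They were at least 839-fold and 801-fold lower (adjusted p = 0.0049 and 0.00491). The prolactin-induced protein Pip, at least 742-fold lower, was at 4.35 to 4.86 in all 131I replicates and 14.38 to 14.66 in all saline replicates (adjusted p = 0.0048).

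Secretoglobins, small lipid-binding proteins of secretions, were among them. Scgb2b27, Scgb1b27 and Scgb2b26 were at least 652-, 415- and 57.1-fold lower, and the dim Scgb2b24 at least 1.09-fold. Defence proteins of saliva also fell. The bactericidal-protein relative Bpifa2 was 4.41, 4.39, 4.75 and 4.84 after 131I and 13.83, 12.31, 13.36 and 14.63 after saline, at least 372-fold lower, and lactoperoxidase, Lpo, was 4.37, 4.60, 4.22 and 4.30 after 131I and 9.35, 9.35, 10.33 and 10.18 after saline, at least 28.0-fold lower. The secreted carbonic anhydrase Car6 was at least 29.9-fold lower and Oit1 at least 14.1-fold. Their adjusted p lay between 0.00349 and 0.00563.

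Epidermal growth factor, Egf, is stored in the same ducts as the kallikreins. It was 4.77, 6.60, 6.55 and 7.31 after 131I and 12.41, 12.43, 14.25 and 12.16 after saline, a log2 difference of -6.5 with a standard error (SE) of 1.53 (adjusted p = 0.00536). Its 131I level was above background in replicates 2, 3 and 4 and not in replicate 1. Smgc, a mucin of the submandibular gland, did not pass (adjusted p = 0.0211), since saline replicate 4 was 6.76 against 14.70, 14.86 and 14.71 in the other saline replicates, with 4.33 to 4.56 after 131I. Amylase, Amy1, was 10.54, 10.01, 9.86 and 10.02 after 131I and 9.72, 9.08, 8.83 and 9.49 after saline, and did not pass (adjusted p = 0.0221). The remaining Kng2, Dnase1, Ltf and Dcpp1 did not pass either. Of the 12 calls, 10, 3, 3 and 0 were left without 131I replicates 1 to 4, and 6, 6 and 4 without saline replicates 1, 2 and 4, while 12 held at an adjusted p under 0.05 without saline replicate 3.

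**Figure D1:**
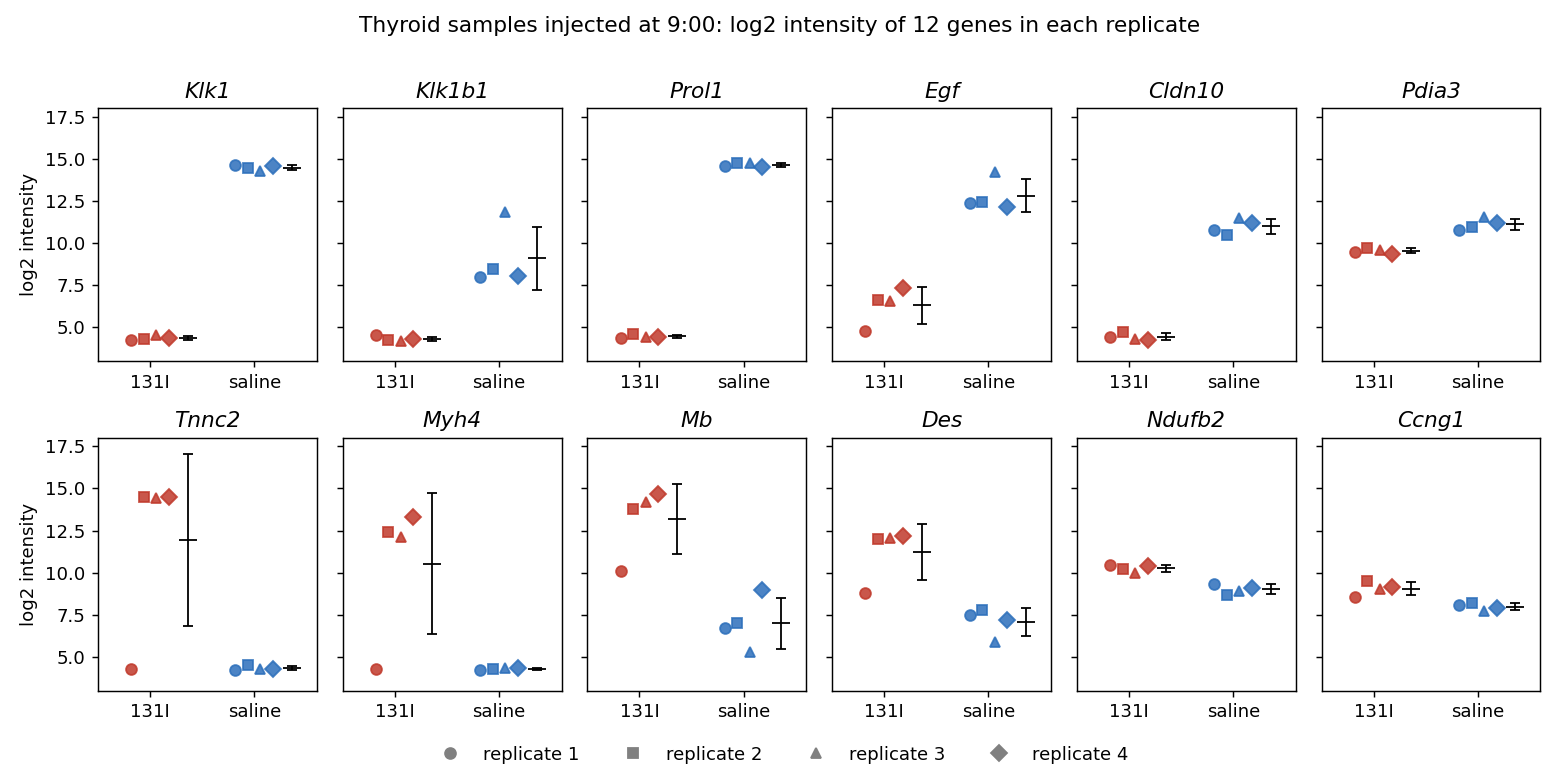
Log2 intensity (y axis) of 12 genes in each 131I and saline replicate of 9:00 (symbols by replicate number), with the mean and SD as a bar. Klk1, Prol1 and Cldn10 are near 4.4 in every 131I replicate, while Tnnc2 and Myh4 are near 4.3 in 131I replicate 1 and above 12 in replicates 2 to 4.

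Other large decreases were found outside the lists. Mup5, a pheromone carrier of the lipocalin family, was 4.44, 4.87, 4.87 and 5.31 after 131I and 14.38, 14.14, 14.37 and 14.35 after saline (log2 difference -9.44, SE 2.17, adjusted p = 0.00478). The protease inhibitor Wfdc12 was 4.95, 6.18, 4.79 and 4.86 after 131I and 14.23, 14.33, 14.55 and 14.70 after saline (log2 difference -9.26, SE 1.97, adjusted p = 0.00349). Each had 1 of 4 131I replicates above background. The transcript 2310057J18Rik was at least 254-fold lower (adjusted p = 0.00542).

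Genes for fluid and electrolyte secretion moved the same way, with 17 of 21 tested members down, none up and a median of -2.57, or -1.95 with bounds. All 3 subunits of the epithelial sodium channel fell. Scnn1b was 4.54, 4.86, 4.27 and 4.31 after 131I and 8.33, 8.16, 9.77 and 8.72 after saline, at least 13.4-fold lower (adjusted p = 0.00293). Scnn1g had a log2 difference of -2.98 (SE 0.59, adjusted p = 0.00303) and Scnn1a, chosen after its values were seen, of -2.58 (SE 0.58, adjusted p = 0.0044). The water channel Aqp5, the potassium channel Kcnn4 and the chloride channel Cftr were at least 12.2-, 19.4- and 3.79-fold lower, with adjusted p from 0.00374 to 0.00419. Bhlha15, a transcription factor of cells that secrete stored granules, was at least 44.4-fold lower (adjusted p = 0.00384). Genes of vesicle release fell less, namely the SNARE protein Vamp8 by 1.49 on the log2 scale (SE 0.25, adjusted p = 0.00218) and the granule GTPase Rab3d by 1.95 (SE 0.38, adjusted p = 0.00293). Vamp8 was 9.01, 8.90, 8.78 and 8.58 after 131I and 10.04, 10.08, 10.89 and 10.20 after saline. It was thus well expressed in both groups, unlike the channels. The number of called members was 11, 6 and 3 without 131I replicates 2, 3 and 4 and 10 without saline replicate 4.

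Of 18 epithelial genes 16 fell and none rose, with a median of -3.29, or -2.82 with bounds. The tight junction protein Cldn10 was 4.45, 4.72, 4.32 and 4.27 after 131I and 10.80, 10.50, 11.52 and 11.17 after saline, at least 64.1-fold lower (adjusted p = 0.00329). The transcription factors Elf5, which acts in secretory epithelia, and Elf3 were at least 3.07-fold and 3.78-fold lower, as was Ap1m2, an adaptor for basolateral sorting, at least 3.51-fold, with adjusted p of 0.00189, 0.00311 and 0.00275. Krt18, a keratin of simple epithelia, was at least 31.2-fold lower (adjusted p = 0.00416). Only Esrp2 and Cldn7 of the list did not pass (adjusted p = 0.188 and 0.295), the second named after its values were seen. The count was 6 and 3 without 131I replicates 3 and 4.

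Myoepithelial and basal cell genes, which mark the contractile layer around glandular acini and ducts, had 6 of 8 members down and a median of -2.22. The laminin chain Lamb3 was 5.71, 5.75, 5.98 and 5.76 after 131I and 7.77, 8.20, 8.73 and 7.94 after saline (log2 difference -2.36, SE 0.34, adjusted p = 0.00189). Smooth muscle actin, Acta2, had a log2 difference of -2.42 (SE 0.46, adjusted p = 0.00288), the basal cell factor Trp63 was at least 3.0-fold lower (adjusted p = 0.00316) and the myosin kinase Mylk fell by 1.28 (SE 0.27, adjusted p = 0.00356). Trp63 was at background in all 131I replicates, whereas Lamb3, Acta2 and Mylk were not. The count was 3 without 131I replicate 4. Smooth muscle myosin, Myh11, fell too (log2 difference -2.08, SE 0.42, adjusted p = 0.00313). The summed intensity of epithelial genes was 395 to 533 after 131I and 7150 to 17000 after saline, and that of myoepithelial genes 284 to 483 and 1670 to 3620. Klk, salivary, epithelial and myoepithelial lists were low in the same replicates, and the part of each in the decrease of the others was not tested.

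The machinery that folds and exports secreted proteins was lower as a group. Of 28 genes for endoplasmic reticulum (ER) folding and translocation 20 fell, none rose, and the median was -1.1. Pdia3, a disulfide isomerase, was 9.50, 9.72, 9.57 and 9.37 after 131I and 10.76, 10.95, 11.55 and 11.17 after saline (log2 difference -1.57, SE 0.26, adjusted p = 0.00209). The translocon subunits Sec61b and Sec63 fell by 1.36 (SE 0.23) and 1.22 (SE 0.2) on the log2 scale, with adjusted p of 0.00206 and 0.00201. The chaperone Hsp90b1 was 10.52, 10.86, 10.34 and 10.63 after 131I and 11.33, 11.44, 11.87 and 11.57 after saline (log2 difference -0.96, SE 0.16, adjusted p = 0.00201). In all 4 genes both groups were well above background and their replicates did not overlap, as in 31.3% of all tested genes. The major ER chaperone Hspa5 and the isomerase Pdia6, named here after their values were seen, had log2 differences of -0.24 and -0.02 (adjusted p = 0.691 and 0.948). These decreases were sensitive to scaling. Under median scaling 6 members were called, the median was -0.63, and Hsp90b1 no longer passed (adjusted p = 0.175). The count was 9 without 131I replicate 4 and 20 at an adjusted p under 0.05 without saline replicate 3.

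Genes of the unfolded protein response, which adjusts ER capacity to load, had 7 of 16 members down and a median of -0.53, and 2 were called under median scaling. The count was 4, 3, 3 and 3 without 131I replicates 1 to 4, and 3 without each of saline replicates 1 and 4. Asparagine synthetase, Asns, fell by 1.6 (SE 0.29, adjusted p = 0.00237), the degradation adaptor Sel1l by 1.34 (SE 0.24, adjusted p = 0.00265) and the stress kinase Eif2ak3, which detects unfolded protein, by 2.0 (SE 0.45, adjusted p = 0.00412). Eif2ak3 was 7.16, 6.49, 6.19 and 6.97 after 131I and 8.88, 7.88, 9.40 and 8.65 after saline. The stress effectors Ddit3, Atf4 and Ppp1r15a, chosen after their values were seen, had log2 differences of 0.63, 0.15 and 0.08 and did not pass. Of 18 mucin glycosylation and Golgi genes, 5 fell and 1 rose. Kdelr3, a receptor that returns ER proteins from the Golgi, was 5.21, 5.31, 5.70 and 5.49 after 131I and 8.01, 8.06, 8.52 and 7.99 after saline (log2 difference -2.72, SE 0.44, adjusted p = 0.00189), while the fucosyltransferase Fut8, chosen after its values were seen, rose by 1.0 (SE 0.23, adjusted p = 0.00534).

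The promoter of Hsp90b1 is printed because it carries the ER stress response element, CCAAT and CCACG with 9 bases of any kind between, which the factor ATF6 binds. Of 21 ER genes with a RefSeq window, 6 (28.6%) held it within 250 bases before the start on either strand, and 2 of 16 (12.5%) unfolded protein response genes, against 35 of 27025 genes (0.13%). Among called ER genes it was in 3 of 15. The window of Hsp90b1 is chr10:86705462-86705561 on the - strand (GRCm38.p6), 117 to 18 bases before the start, with the match to the reverse complement in capitals.
Hsp90b1: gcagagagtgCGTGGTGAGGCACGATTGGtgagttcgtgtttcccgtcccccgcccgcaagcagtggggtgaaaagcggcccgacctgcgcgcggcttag

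**Figure D2:**
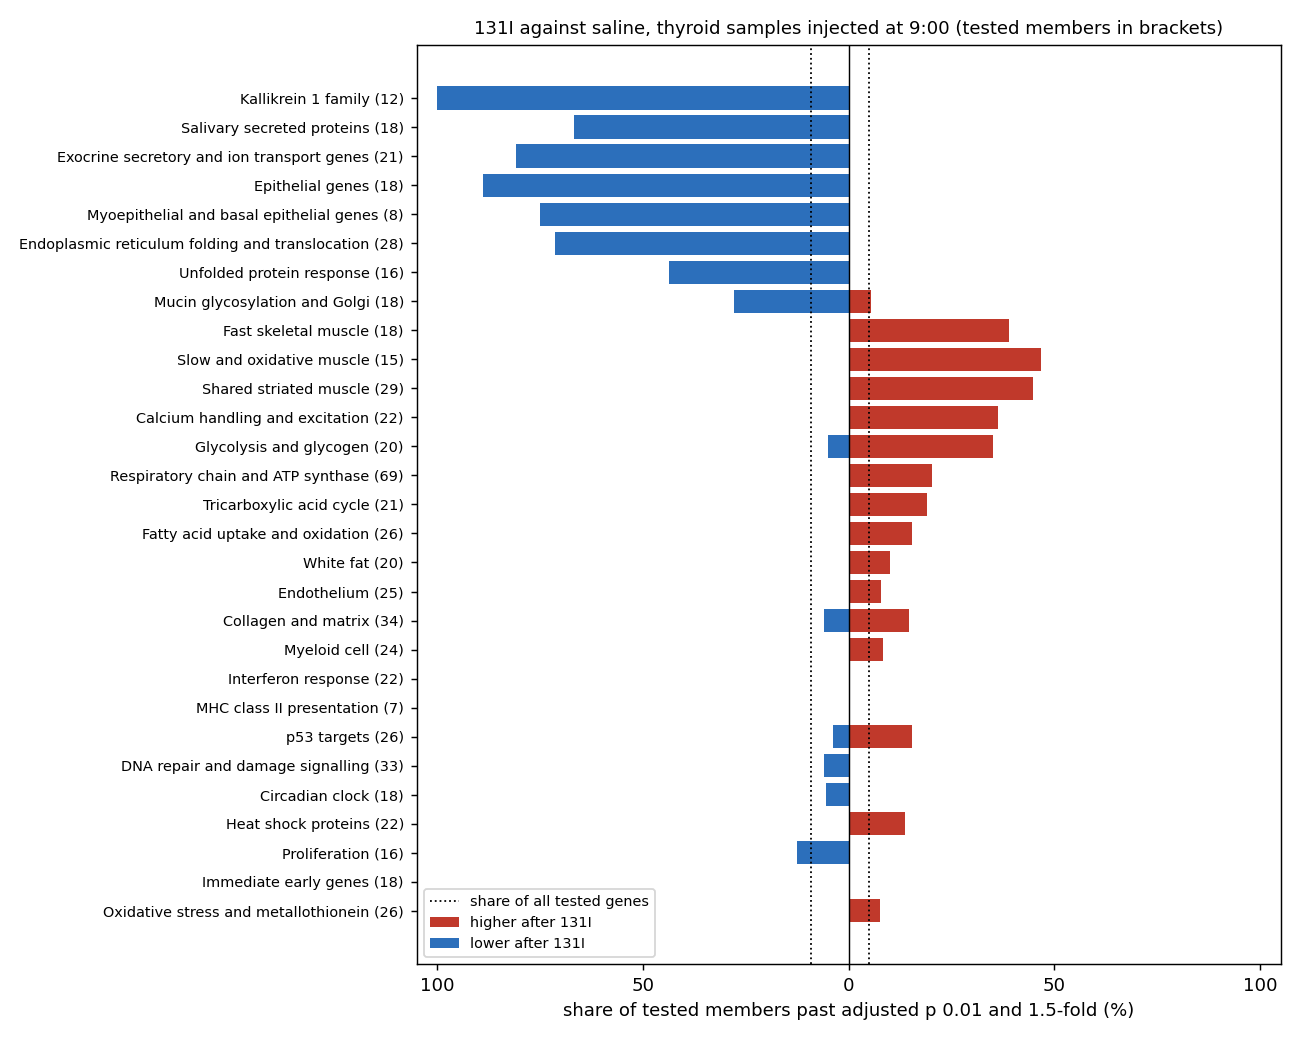
Share of the tested members of each gene list (number in brackets) that were regulated, with bars to the left for genes lower after 131I and to the right for genes higher after 131I, in percent. Dotted lines mark the shares over all tested genes, 9.13% down and 4.93% up, and the secretory lists lie beyond the left line while the muscle lists lie beyond the right one.

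Skeletal muscle genes were higher, but not in all 131I replicates. Of 18 fast muscle genes 7 rose, none fell, and the median log2 difference was 5.59, or 4.9 with bounds. Troponin C of fast fibres, Tnnc2, was 4.29, 14.48, 14.43 and 14.51 in the 131I replicates and 4.25, 4.52, 4.26 and 4.30 in the saline replicates. Replicates 2 to 4 were near the top of the scale and replicate 1 was among the saline values, so that the test was not passed (adjusted p = 0.0186). The calcium pump Atp2a1, at 4.56, 14.60, 14.63 and 14.48 after 131I and 4.61, 4.36, 4.34 and 4.49 after saline, had the same pattern (adjusted p = 0.0196). The calcium buffer parvalbumin, Pvalb, was 4.64, 14.33, 14.53 and 14.60 after 131I and 4.44 to 4.73 after saline (adjusted p = 0.0177). Tnni2, Tnnt3, Mylpf, Mybpc2, Pgam2, Myh1 and Eno3, which encode further sarcomere proteins and muscle isoforms of glycolytic enzymes, were likewise above 8 in 131I replicates 2 to 4 and under 6 in 131I replicate 1, and did not pass.

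The 7 members that rose included Myh4. The fast myosin heavy chain Myh4 was 4.30, 12.41, 12.11 and 13.32 after 131I and 4.22, 4.27, 4.33 and 4.37 after saline, at least 43.4-fold higher on the group mean (adjusted p = 0.00852). AMP deaminase, Ampd1, was at least 8.59-fold higher (adjusted p = 0.00741), glycogen phosphorylase, Pygm, at least 6.06-fold (adjusted p = 0.00711) and the Z-disc protein Actn3 at least 3.35-fold (adjusted p = 0.0041). In the light chain Myl1, 131I replicate 1 also exceeded the saline replicates, at 7.37, 10.05, 10.61 and 10.78 after 131I and 6.70, 5.93, 4.78 and 5.57 after saline (log2 difference 3.96, SE 0.8, adjusted p = 0.00311). Pfkm and Casq1 made up the 7. Actn3, Ampd1 and Casq1 were each above background on 3 arrays of 131I at 9:00, and on 5, 5 and 4 thyroid arrays in all. These 3 genes thus met the filter on dim probes only through the group where they were high. Atp2a1, which was not called, had the same counts as Actn3 and Ampd1. A stricter filter needed every replicate of 131I or every replicate of saline at 9:00 to be above background. Under it 2 members of the list were called, and Myh4 and Pygm were not tested. The summed intensity of the list was 572 in 131I replicate 1 and 133000, 141000 and 157000 in replicates 2 to 4, against 447 to 515 after saline. Without 131I replicate 1 all 18 members passed and the median was 7.44, which includes the genes that met the filter only through this group. A fit of the 2 compared groups alone, whose error was not shared with other thyroid groups, called 1 member. The count was 1, 0 and 0 without 131I replicates 2, 3 and 4, and 2, 3 and 1 without saline replicates 1, 2 and 4.

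Of 15 slow and oxidative muscle genes 7 rose and none fell, with a median of 1.9, or 1.41 with bounds. Myoglobin, Mb, the oxygen store of oxidative fibres and heart, was 10.12, 13.77, 14.21 and 14.66 after 131I and 6.70, 7.02, 5.29 and 8.99 after saline (log2 difference 6.19, SE 1.37, adjusted p = 0.00405). Here 131I replicate 1 also lay above every saline replicate. Csrp3, a Z-disc protein, was at least 13.9-fold higher (adjusted p = 0.00726) with replicate 1 at 4.35, and slow troponin C, Tnnc1, was at least 1.79-fold higher (adjusted p = 0.00518) with all 131I replicates above background at 5.07 to 6.57. Mybpc1 was at least 1.08-fold higher (adjusted p = 0.00722). The count was 5 under the stricter filter and 3 in the fit of the 2 groups alone. It was 2, 0 and 0 without 131I replicates 2, 3 and 4, and 2, 2 and 1 without saline replicates 1, 2 and 4.

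Of 29 genes shared by striated muscles 13 rose and none fell, with a median of 2.52, or 2.28 with bounds. In 7 of the 29 the 131I and saline replicates did not overlap, against 31.3% of all tested genes. The LIM protein Fhl1 was 10.16, 12.58, 13.10 and 13.35 after 131I and 8.04, 8.50, 6.63 and 8.84 after saline (log2 difference 4.3, SE 0.68, adjusted p = 0.00189). Desmin, Des, the intermediate filament of muscle, was 8.77, 11.99, 12.04 and 12.19 after 131I and 7.50, 7.77, 5.89 and 7.18 after saline (log2 difference 4.16, SE 0.78, adjusted p = 0.00279). The Z-disc protein Actn2 was 5.57, 10.74, 10.66 and 10.79 after 131I and 4.40 to 4.46 after saline, at least 20.3-fold higher (adjusted p = 0.00349). In these 3 genes 131I replicate 1 lay between the saline replicates and the other 131I replicates. The sarcoglycan Sgca was at least 1.27-fold higher (adjusted p = 0.0032), with 5.26 to 5.57 in every 131I replicate. Skeletal actin, titin and creatine kinase, Acta1, Ttn and Ckm, the first chosen after its values were seen, did not pass (adjusted p = 0.029, 0.0178 and 0.0167). The summed intensity was 2240 in 131I replicate 1 and 65900 to 69900 in replicates 2 to 4, against 811 to 1290 after saline. Without 131I replicate 1, 26 members passed, and under the stricter filter 5 did. The count was 3, 3 and 2 without 131I replicates 2, 3 and 4, and 6, 7 and 5 without saline replicates 1, 2 and 4.

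The muscle regulator Myf6 was at least 4.84-fold higher (adjusted p = 0.00775), at 7.86, 8.51 and 8.73 in 131I replicates 2 to 4 and 4.38 in replicate 1. Among calcium handling and excitation genes, which couple the nerve impulse to contraction, 8 of 22 rose, with a median of 1.36, or 0.91 with bounds. The calcium channel subunits Cacng1 and Cacna2d1 were at least 2.3-fold and 7.17-fold higher (adjusted p = 0.00405 and 0.00485), the junctional protein Jph1 at least 1.39-fold (adjusted p = 0.00466) and the potassium channel Kcna7 at least 1.72-fold (adjusted p = 0.00468). Cacna2d1 was 5.06, 8.75, 9.01 and 8.92 after 131I and 4.34, 4.67, 4.61 and 4.75 after saline. Without 131I replicate 1, 15 of the 22 were called, against 1, 0 and 0 without 131I replicates 2, 3 and 4, and 2, 3 and 1 without saline replicates 1, 2 and 4. Under the stricter filter 3 of this list were called, and Cacng1, Jph1, Kcna7 and also Myf6 were not tested. The muscle ubiquitin ligases Trim63, Fbxo32 and Trim54 rose, the only 3 of 28 proteasome and ligase genes that did. That is 10.7%, against 14.1% of all tested genes. The count of these was 3, 1, 0 and 0 without 131I replicates 1 to 4, and 0 without each of saline replicates 1, 2 and 4. Of 11 cardiac list genes on the array 2 were tested, and both rose. Actc1 was above background on 3 thyroid arrays, all of 131I at 9:00. It thus met the filter on dim probes only through the group where it was high. Cacng1 met it through that group too, with 3 of its 4 thyroid arrays above background there. Actc1 was at least 1.32-fold higher (adjusted p = 0.00405) and Myl4 rose by 1.07 on the log2 scale (SE 0.27, adjusted p = 0.00837). The list had 1, 1, 0 and 0 calls without 131I replicates 1 to 4, and 0 without saline replicate 4. Both are also made in skeletal muscle at some stage of its development.

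The promoters of Atp2a1, Myh4 and Des are printed to show the E-box CAGCTG, a palindromic site that MyoD family factors can bind. It was in 8 of 14 (57.1%) fast muscle genes with a RefSeq window, 6 of 13 (46.2%) slow and 10 of 20 (50%) shared striated genes, against 14.7% of all 27025 genes, within 250 bases before the start. The last 100 bases are chr7:126463074-126463173 on the - strand for Atp2a1, chr11:67237712-67237811 on the + strand for Myh4 and chr1:75360192-75360291 on the + strand for Des (GRCm38.p6), with the motif in capitals.
Atp2a1: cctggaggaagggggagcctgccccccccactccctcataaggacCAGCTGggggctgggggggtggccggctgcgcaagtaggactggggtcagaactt
Myh4: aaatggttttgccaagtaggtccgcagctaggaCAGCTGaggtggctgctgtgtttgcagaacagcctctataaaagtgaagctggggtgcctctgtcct
Des: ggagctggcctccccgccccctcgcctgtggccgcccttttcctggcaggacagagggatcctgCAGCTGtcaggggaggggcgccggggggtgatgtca

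Among the genes that rose most by the naming rule and were in no list, several shared the muscle pattern. The sodium channel subunit Scn4b was 5.75, 9.33, 9.27 and 9.30 after 131I and 5.40, 5.17, 4.89 and 5.22 after saline (log2 difference 3.24, SE 0.75, adjusted p = 0.00488). Fxyd6, Abcb4, Pde4dip, Mustn1 and Gpc1 rose by 3.85, 3.22, 3.01, 2.82 and 2.81 on the log2 scale, with 131I replicate 1 the lowest 131I replicate in each. Ntrk2, the receptor of brain-derived neurotrophic factor, did not share it, at 9.63, 9.49, 9.24 and 9.04 after 131I and 6.70, 7.06, 5.11 and 6.61 after saline (log2 difference 2.98, SE 0.65, adjusted p = 0.00388). The drug exporter Slc47a1 rose by 2.93 (SE 0.61, adjusted p = 0.00329). For Pde4dip, the sign differed between its probes.

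Transcripts of energy metabolism were moderately higher in the 131I replicates than in the saline replicates of 9:00, 131I replicate 1 included. Of 69 respiratory chain and ATP synthase genes 68 had a higher mean after 131I, 14 rose, none fell, and the median was 0.66. The complex I subunit Ndufb2 was 10.46, 10.19, 10.01 and 10.39 after 131I and 9.35, 8.65, 8.93 and 9.11 after saline (log2 difference 1.25, SE 0.28, adjusted p = 0.00411). Another complex I subunit, Ndufb5, was 12.19, 11.65, 11.85 and 12.37 after 131I and 11.17, 10.53, 10.76 and 11.02 after saline (log2 difference 1.14, SE 0.25, adjusted p = 0.00396). Ndufc1 and the ATP synthase subunit Atp5h rose by 0.83 (SE 0.18) and 0.8 (SE 0.17), with adjusted p of 0.00396 and 0.00349. The summed intensity of the list was 473000 to 544000 after 131I, highest in replicate 1, and 249000 to 361000 after saline. Its mean log2 intensity at 9:00 was 11.90 to 12.15 after 131I and 10.96 to 11.54 after saline. In the saline replicates it was 11.80 to 12.05 at 12:00 and 11.72 to 11.99 at 15:00. After 131I it was 11.66 to 12.02 at 12:00 and 11.51 to 12.13 at 15:00. Under median scaling the count of called members was 23 and the median 1.08. The count was 4, 4, 6 and 0 without 131I replicates 1 to 4, and 8 and 6 without saline replicates 2 and 4.

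Of 21 tricarboxylic acid cycle genes 4 rose, with a median of 0.69, among them malate dehydrogenase Mdh2, at 11.86, 11.49, 11.61 and 11.58 after 131I and 11.13, 10.53, 10.09 and 10.82 after saline (log2 difference 0.99, SE 0.19, adjusted p = 0.00288). Of 20 glycolysis and glycogen genes 7 rose and 1 fell. Triosephosphate isomerase, Tpi1, rose by 0.91 (SE 0.15, adjusted p = 0.00201) and Gapdh by 1.04 (SE 0.21, adjusted p = 0.00309), with no overlap between groups, while the phosphorylase kinase subunits Phka1 and Phkg1, at 5.99 and 4.57 in 131I replicate 1 and at or above 7.43 in the others, followed the muscle pattern. The glucose carrier Slc2a1 was the one that fell (log2 difference -1.18, SE 0.3, adjusted p = 0.00819). In the creatine and high-energy phosphate list, adenylate kinase Ak1 and Adssl1 rose by 2.4 (SE 0.43) and 2.66 (SE 0.48), and the mitochondrial creatine kinase of non-muscle tissue, Ckmt1, was at least 56.1-fold lower (adjusted p = 0.00349), at 4.37 to 4.84 after 131I and 10.39 to 11.79 after saline. The tricarboxylic acid cycle count was 2, 2, 1 and 1 without 131I replicates 1 to 4 and 1 without each of saline replicates 2 and 4, and the glycolysis count was 4, 1 and 1 without 131I replicates 2, 3 and 4 and 5 and 4 without saline replicates 2 and 4.

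Fat genes were measured because fat surrounds the gland. Of 26 fatty acid uptake and oxidation genes 4 rose, with a median of 0.85. The carnitine transferase Cpt1b was 9.60, 9.71, 9.40 and 9.17 after 131I and 8.32, 8.71, 6.71 and 8.27 after saline (log2 difference 1.47, SE 0.34, adjusted p = 0.00524). The fatty acid carrier Cd36 rose by 1.51 (SE 0.39, adjusted p = 0.00883). No member of this list was called without any one of the 4 131I replicates, and 1 was without saline replicate 4. Of 20 white fat genes 2 rose, the natriuretic peptide receptor Npr3 by 1.66 (SE 0.28, adjusted p = 0.00206) and the glycerol channel Aqp7 by 1.58 (SE 0.4, adjusted p = 0.00812). Of 8 brown fat genes 2 rose, Pank1, by 0.98, and Zic1, at least 1.14-fold with 131I replicate 1 at 4.31. The white fat count was 2, 1, 1 and 1 and the brown fat count 1, 0, 0 and 0 without 131I replicates 1 to 4, while white fat had 1 call without saline replicate 4 and brown fat 1, 0 and 0 without saline replicates 1, 2 and 4. The summed intensity of white fat genes was 66400 to 90800 after 131I and 42500 to 75100 after saline, and these ranges overlapped. The part of fat in these results was not tested.

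**Figure D3:**
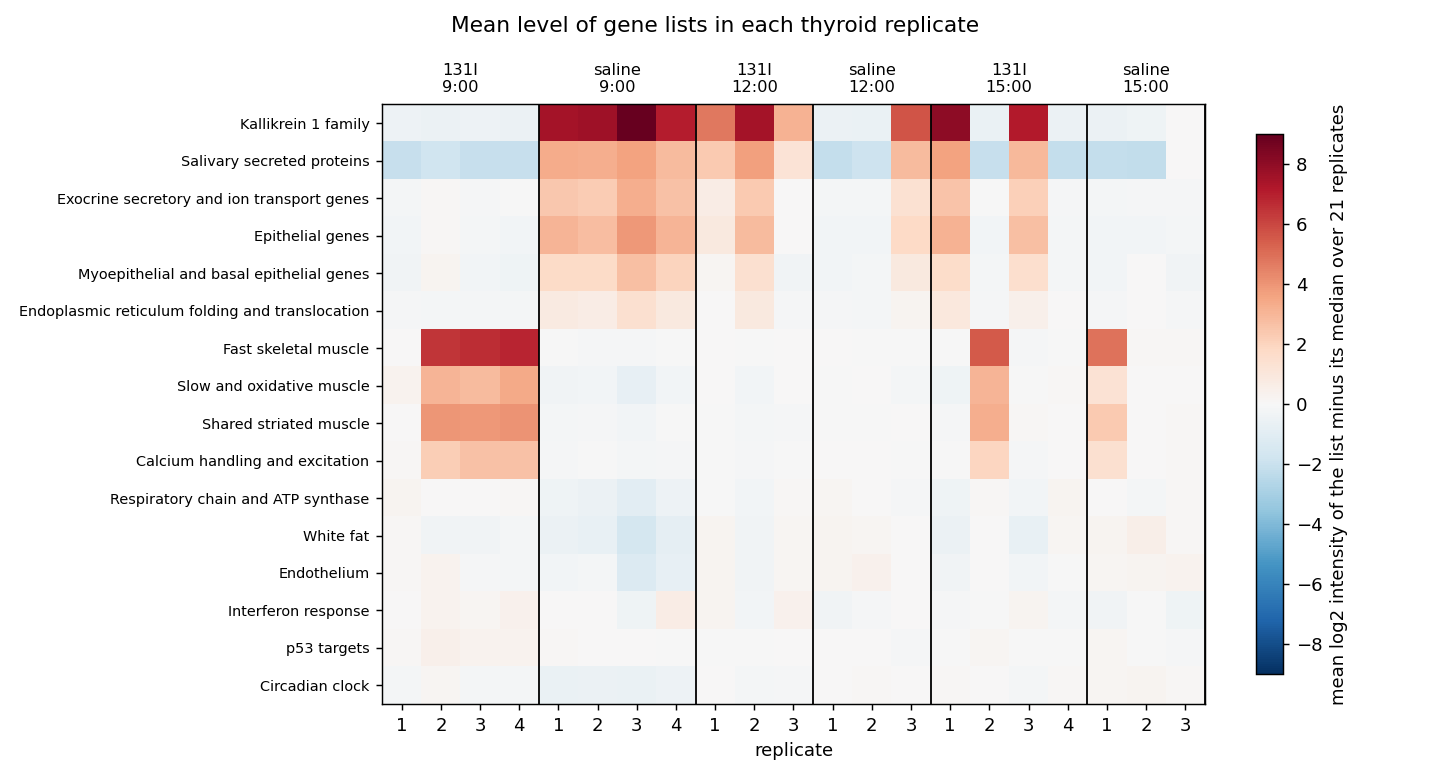
Mean log2 intensity of each gene list in each of the 21 thyroid replicates, minus the median of that list over the replicates (colour scale), with 131I and saline groups side by side at each hour. At 9:00 the kallikrein list has means of 4.34 to 4.40 in the 131I replicates, near its median, and stands well above it in all 4 saline replicates, and the muscle lists are high in 131I replicates 2 to 4 only.

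Of the 4 tested follicular cell genes, 1 fell. It was Slc5a8, a carrier of monocarboxylates and iodide that is also made in kidney and colon, at 4.36, 4.37, 4.33 and 4.21 after 131I and 8.53, 8.59, 9.50 and 8.77 after saline, at least 14.4-fold lower (adjusted p = 0.00329). Tshr was 6.65, 5.06, 6.09 and 6.11 after 131I and 5.93, 6.33, 4.93 and 4.96 after saline (adjusted p = 0.393), and Hhex and Cpq did not pass either (adjusted p = 0.337 and 0.31). The C cell genes Ret and Syp did not pass. Of 5 cartilage genes, Sox9, Mia and Chad were at least 4.02-, 1.91- and 1.47-fold lower. Sox9 is also a regulator of salivary epithelium. The cartilage count was 1, 0, 0 and 0 without 131I replicates 1 to 4, and 1 and 0 without saline replicates 1 and 4. Of 5 airway genes, Tppp3 was at least 2.43-fold higher (adjusted p = 0.00189), Rsph1 at least 1.92-fold higher (adjusted p = 0.00719), and the cytochrome Cyp2f2 fell, at 5.74, 9.82, 6.53 and 6.58 after 131I and 11.70, 11.81, 12.88 and 12.08 after saline (log2 difference -4.95, adjusted p = 0.00675), with 131I replicate 2 the highest 131I value. No T cell gene and no parathyroid gene was tested, since none passed the filter on dim probes.

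Immune genes differed little. None of 22 interferon response genes passed, their median was 0.07, or -0.11 without saline replicate 3, and the smallest adjusted p was 0.0259, for Ifit2. None of 7 MHC class II genes passed. Cd74, the invariant chain, was 9.83, 10.76, 10.35 and 10.54 after 131I and 10.22, 10.74, 10.41 and 12.26 after saline (adjusted p = 0.315), with saline replicate 4 the highest. Of 24 myeloid genes 2 rose, lysozyme Lyz2, at least 1.29-fold, and the mast cell chymase Cma1, by 0.94 (SE 0.24, adjusted p = 0.00813). That is 8.33% of the list, against 14.1% of all tested genes. The myeloid count was 1, 0, 0 and 1 without 131I replicates 1 to 4, and 0, 5 and 1 without saline replicates 1, 2 and 4. None of 4 B cell genes passed. Of 25 endothelial genes 2 rose (8%, against 14.1% of all tested genes), the water channel Aqp1 by 1.61 (SE 0.36, adjusted p = 0.00405) and the angiopoietin receptor Tek by 1.08 (SE 0.24, adjusted p = 0.0044), and the median was 0.62. The endothelial count was 2, 0, 2 and 0 without 131I replicates 1 to 4, and 2, 3 and 1 without saline replicates 1, 2 and 4. Of 34 collagen and matrix genes 5 rose and 2 fell. Dermatopontin, Dpt, was 9.65, 10.01, 9.61 and 9.81 after 131I and 8.57, 9.04, 8.43 and 8.34 after saline (log2 difference 1.18, SE 0.19, adjusted p = 0.00201), tenascin Tnxb rose by 1.82 (SE 0.31, adjusted p = 0.00206) and Fbln1 by 0.8 (SE 0.16, adjusted p = 0.00316), and the basement membrane collagen Col18a1 fell by 1.11 (SE 0.17, adjusted p = 0.00189). None of 6 nerve and 7 red cell genes passed. The red cell list had a median of 0.97, and the globin Hba-a1 was 13.58, 14.63, 14.23 and 14.55 after 131I and 13.41, 13.26, 12.66 and 13.61 after saline (adjusted p = 0.037).

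Genes that answer ionizing radiation through p53, the factor that arrests or kills damaged cells, were called at a share near that of all genes. Of 26 tested p53 targets 4 rose and 1 fell, which is 19.2% against 14.1% of all tested genes, and their median was 0.27. Cyclin G1, Ccng1, was 8.53, 9.49, 9.06 and 9.16 after 131I and 8.10, 8.20, 7.73 and 7.91 after saline (log2 difference 1.07, SE 0.23, adjusted p = 0.00351). The cell cycle inhibitor p21, Cdkn1a, was 5.96, 5.91, 6.01 and 5.69 after 131I and 5.23, 5.33, 4.64 and 4.80 after saline (log2 difference 0.89, SE 0.23, adjusted p = 0.0092), and the death receptor Fas rose by 0.95 (SE 0.25, adjusted p = 0.0098). In Ccng1 and Cdkn1a every 131I replicate exceeded every saline replicate, though Cdkn1a had adjusted p from 0.0163 to 0.0248 with any one 131I replicate left out. Fas did not pass by limma without 131I replicates 2, 3 and 4 (adjusted p = 0.0356, 0.0181 and 0.0224). Nor did it without saline replicates 1 and 2 (adjusted p = 0.0185 and 0.0201). The fourth, Ak1, had replicate 1 as its lowest 131I value, as in the muscle lists, and so did Ccng1. Whether these 2 differences go with the muscle content of the samples was not tested. Ephx1, an epoxide hydrolase, fell by 1.13 (SE 0.22, adjusted p = 0.00288). Mdm2, the p53 ubiquitin ligase, was 7.41, 7.79, 7.61 and 7.79 after 131I and 6.95, 7.45, 7.18 and 7.36 after saline (adjusted p = 0.0605), and Bbc3, Sesn1, Phlda3, Zmat3 and Plk2 did not pass. The count of p53 targets called was 2 without each of 131I replicates 2, 3 and 4, 3 without saline replicate 1, and 7 at an adjusted p under 0.05 without saline replicate 3.

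Of 33 DNA repair and damage signalling genes, 2 fell and none rose, with a median of 0.07. The damage kinase Atm was 5.33, 5.29, 4.71 and 5.39 after 131I and 6.01, 6.39, 6.36 and 6.45 after saline (log2 difference -1.12, SE 0.2, adjusted p = 0.00242). Of its 2 probes 1 was called, and the other was at -0.45. The repair helicase Ercc3 fell by 0.6 (SE 0.14, adjusted p = 0.00549), but by limma under median scaling its difference was -0.14 (adjusted p = 0.641). The count of the list was 1 without each of 131I replicates 2, 3 and 4, and 1 without saline replicate 2. Of 16 proliferation genes 2 fell, the replication helicase Mcm2, at least 1.12-fold, and thymidylate synthase Tyms, whose probes differed in sign. None of 18 immediate early genes passed.

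The study took a larger radiation signature from the literature and listed 7 of its genes as regulated in some tissue and hour. All 7 were tested here. The study listed Gja1, Gadd45g and Tgfb2 for kidney or liver and not for thyroid. Ccng1 rose and Gjb2 and Plcg2 fell. The connexin Gjb2, a gap junction protein of epithelia, was 5.52, 6.08, 5.09 and 5.58 after 131I and 9.59, 8.76, 10.44 and 9.75 after saline (log2 difference -4.07, SE 0.87, adjusted p = 0.00355). The phospholipase Plcg2 was 4.60, 5.50, 5.68 and 5.06 after 131I and 6.75, 6.75, 7.39 and 7.10 after saline (log2 difference -1.79, SE 0.36, adjusted p = 0.00311). Tgfb2 and the cyclin Ccnd1 had log2 differences of -2.01 and -1.15 and did not pass (adjusted p = 0.0136 and 0.024), nor did Gja1 and Gadd45g (adjusted p = 0.248 and 0.881). Gadd45g was 4.50, 7.85, 7.05 and 7.30 after 131I and 6.22 to 6.71 after saline, with 131I replicate 1 below and the others above the saline values. The list was chosen by the study with these samples in view, so its 3 calls of 7 are a description. They became 2, 1 and 0 without 131I replicates 2, 3 and 4.

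The study also had a larger signature of thyroid hormone genes. Of those it listed as regulated in some tissue and hour, 12 were tested, 5 fell and 1 rose. The receptor of very-low-density lipoprotein, Vldlr, was 10.72, 11.47, 11.05 and 11.03 after 131I and 10.09, 10.11, 8.86 and 9.94 after saline (log2 difference 1.32, SE 0.25, adjusted p = 0.00288). The transcription cofactor Lmo2 fell by 1.54 (SE 0.35, adjusted p = 0.00466), the carrier Slc16a6 by 1.42 (SE 0.37, adjusted p = 0.0092), and the adhesion receptor Cd44, at background after 131I, was at least 2.01-fold lower (adjusted p = 0.00716). Egf and Slc2a1, given above, were the others. Atp2a1, Prkag2, Ccnd1, Pck1, Mbp and Thrsp did not pass. Thrsp, a lipogenic protein induced by thyroid hormone in liver and fat, was 13.94, 11.66, 13.67 and 13.13 after 131I and 13.32, 13.45, 11.95 and 13.29 after saline (adjusted p = 0.87). These calls are a description too, for the same reason, and 3 genes were called under median scaling, 2, 3, 2 and 1 without 131I replicates 1 to 4, and 3, 3 and 1 without saline replicates 1, 2 and 4. None of 15 other thyroid hormone receptors, transporters and targets passed.

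Clock genes were examined because all samples of a group were taken at 1 hour of the day. Of 18 tested, 1 fell and none rose, with a median of 0.57. Nfil3, a repressor of the clock output, was 6.93, 7.29, 8.11 and 7.68 after 131I and 9.30, 8.88, 9.69 and 8.51 after saline (log2 difference -1.59, SE 0.39, adjusted p = 0.00669), but it did not pass under median scaling (adjusted p = 0.0397), without 131I replicates 1, 2 and 4 (adjusted p = 0.0204, 0.0188 and 0.0155), without saline replicates 1 and 2 (adjusted p = 0.0168 and 0.011) or with the replicate block (adjusted p = 0.0101). The repressor Per2 was 7.03, 8.04, 6.27 and 6.78 after 131I and 5.68, 5.51, 5.90 and 6.49 after saline (log2 difference 1.13, adjusted p = 0.0131). The activator Arntl was 6.44, 6.00, 7.09 and 6.83 after 131I and 7.82, 7.08, 7.22 and 6.85 after saline (log2 difference -0.65, adjusted p = 0.049), and its partner Clock was 8.42 to 8.80 after 131I and 8.40 to 8.79 after saline. The output factor Dbp spread from 7.76 to 10.18 within the saline group and did not pass (adjusted p = 0.026). Per1, Per3, Cry2, Nr1d1, Nr1d2, Tef and Rora did not pass.

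Stress and metabolic lists completed the comparison. Of 22 heat shock genes 3 rose. Hspb1, a small heat shock protein, was 8.95, 8.83, 9.12 and 9.49 after 131I and 7.87, 7.90, 7.48 and 7.80 after saline (log2 difference 1.33, SE 0.21, adjusted p = 0.00189), whereas Hspb7 and Hspa1l, at 4.45 and 4.25 in 131I replicate 1 and above 6 in the others, had the muscle pattern. Of 26 oxidative stress genes, the glutathione transferases Gstm1 and Gstm5 rose, each by 0.61. Of 13 methionine and polyamine genes, spermidine synthase Srm fell by 1.44 (SE 0.31, adjusted p = 0.00389) and Gnmt by 1.49 (SE 0.35, adjusted p = 0.0057), and neither was called under median scaling.

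The response at 9:00 was then set against that at the later hours by testing the difference between the log2 response at 9:00 and the mean response at 12:00 and 15:00. At those hours 131I and saline thyroid samples came from other mice of the same design, 13 replicates in all. It was past the same thresholds for 1230 probes (10.1%), 361 higher and 869 lower at 9:00, and 1032 of these were also regulated at 9:00, which is 69% of the regulated probes and 83.9% of the probes with a difference. Both tests contain the response at 9:00, so part of this overlap follows from their construction. The count of probes with a difference was 794 and 752 without 131I replicates 3 and 4, 431 without saline replicate 3 and 724 under median scaling. By genes, 991 (11.6%) had a difference. All 12 kallikreins were among them. For Klk1 the adjusted p was 0.00293, and no size is given because groups at background enter it. The median of the fitted log2 differences of the family was -8.34 at 9:00, 3.42 at 12:00 and 3.9 at 15:00. These too include groups at background, so that only their sign can be read.

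In the salivary, exocrine, epithelial, myoepithelial and ER lists, 13 of 18, 18 of 21, 15 of 18, 6 of 8 and 18 of 28 members had such a difference, each lower at 9:00. In the fast muscle list only Myl1, in the slow list 2 of 15 and in the shared striated list 3 of 29 did, each higher at 9:00, and the fast muscle median was 5.59 at 9:00, 0 at 12:00 and -0.36 at 15:00. Fhl1 differed by 4.45 (SE 0.87, adjusted p = 0.00293) and Des by 4.29 (SE 0.99, adjusted p = 0.00535). Myoglobin did not pass (difference 5.53, SE 1.75, adjusted p = 0.0259). Outside these lists the response of Ccng1 was 1.07 at 9:00, -0.23 at 12:00 and -0.33 at 15:00, a difference of 1.35 (SE 0.29, adjusted p = 0.00397). That of Per2 was 1.13, -0.83 and -0.57, a difference of 1.84 (SE 0.4, adjusted p = 0.00414), although Per2 was not regulated at 9:00 itself, and that of Nfil3 differed by -2.21 (SE 0.49, adjusted p = 0.00462).

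The later groups were themselves mixed. The mean log2 intensity of the 12 kallikreins was 4.34 to 4.40 in the 131I and 11.96 to 13.87 in the saline replicates of 9:00. At 12:00 it was 9.66, 12.34 and 7.98 after 131I and 4.35, 4.31 and 10.53 after saline. At 15:00 it was 12.96, 4.28, 12.01 and 4.35 after 131I and 4.34, 4.47 and 4.88 after saline. Only at 9:00 did every replicate of each group lie on its own side of this gap. The mean of the 18 fast muscle genes was 4.68, 11.11, 11.34 and 11.57 in the 131I and 4.55 to 4.65 in the saline replicates of 9:00, and elsewhere it was raised in 1 131I replicate of 15:00, at 10.21, and 1 saline replicate of 15:00, at 9.56. Over the 21 thyroid replicates, the kallikrein mean was above 7 in 10, the fast muscle mean in 5, both in 0 and neither in 6. The highest fast muscle mean among the 10 was 4.74, and the highest kallikrein mean among the 5 was 4.40. 131I replicate 1 of 9:00 was one of the 6. What part of the differences between 131I and saline at 9:00 goes with this content of the samples was not tested.

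**Figure D4:**
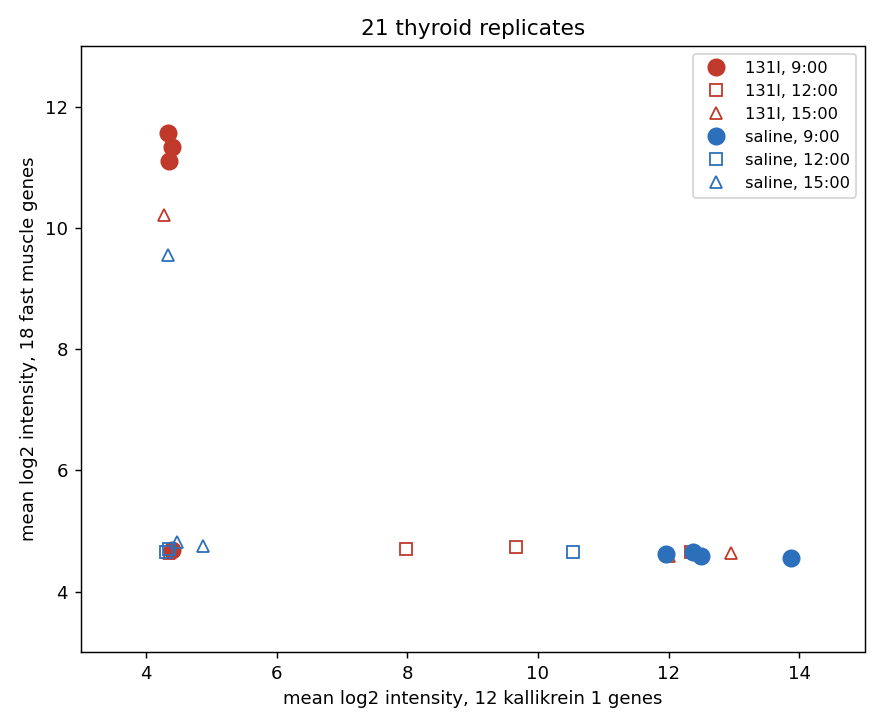
Mean log2 intensity of the 18 tested fast muscle genes (y axis) against that of the 12 tested kallikrein 1 genes (x axis) in the 21 thyroid replicates, by injection (colour) and hour (shape). No replicate is high on both axes, 131I replicates 2 to 4 of 9:00 are at 11.11 to 11.57 on the y axis, and saline replicates of 9:00 are at 11.96 to 13.87 on the x axis.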

How the data were processed

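Total RNA of each sample was hybridised to Illumina MouseRef-8 BeadChips by the authors. The deposited non-normalized intensity values are bead averages per probe for 136 arrays, and the deposited detection p-value states for each probe whether it exceeded the negative controls. The deposited normalized intensity values were quantile normalized by the authors over all arrays and tissues, and served as an alternative. No array software version or genome build was given in the sources used here, and 0 sample columns were left unused. Nor was a saturation flag found, so the brightest genes may be compressed. A gene symbol came from the platform annotation for 23978 of 25697 probes, and 1719 had none.

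The non-normalized intensities of the 23 thyroid arrays were background corrected with nec (limma 3.58.1, R 4.3.3, detection p-values, offset 16), quantile normalized among themselves on the log2 scale, and the arrays of a sample measured more than once were averaged. Probes with a detection p-value under 0.01 on at least 3 arrays were kept. One limma fit (lmFit, eBayes with an intensity trend) covered the 6 thyroid groups, 21 replicates in all, and gave the 9:00 contrast and its difference from the mean contrast of 12:00 and 15:00, with Benjamini-Hochberg adjustment over all tested probes. Adjusted p in the text is from this fit, and p-values measure only the spread between these samples, whose small number limits the precision. For a gene with several probes the one with the smallest p was used. Of 233 named genes 95 had several, 59 of these with the same call on all, and signs differed for 6, including Pde4dip and Tyms with a called probe.

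Genes were named by rule: up to 4 members per list with the smallest p among those that passed, the 15 genes that rose and the 15 that fell most without overlap, all kallikreins and genes the study names, the core clock genes, the tissue markers and members at background in a whole group. The members and lists were chosen with earlier results of these data known. Alternatives changed the background correction, scaling, filter, samples in the fit, repeat arrays, array weights, prior, replicate block and threshold, and left out each replicate. The procedure was tested on simulated data. Promoter windows came from RefSeq (GRCm38.p6).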

Additional observations from a re-analysis of the deposited data

Results flagged for a closer look

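Of the 61 genes whose replicate values were printed or summarised, 11 had a 131I replicate and 8 a saline replicate whose gap to its nearest neighbour, as a share of the group's range, was above Dixon's critical value. Chance alone flags about 1 in 20 groups, and these genes share samples and are not independent. 131I replicate 1 was the lowest in Actn2 (0.975), Atp2a1 (0.985), Cacna2d1 (0.934), Des (0.942), Myh4 (0.866), Pvalb (0.973), Scn4b (0.983) and Tnnc2 (0.992), all genes of muscle or excitation. Atm was lowest in 131I replicate 3 (0.84), Lamb3 highest in 131I replicate 3 (0.845) and Wfdc12 highest in 131I replicate 2 (0.88). Saline replicate 3 was the highest in Ckmt1 (0.839), Egf (0.869), Kdelr3 (0.867) and Klk1b1 (0.882), and the lowest in Thrsp (0.896) and Vldlr (0.858). Mup5 was lowest in saline replicate 2 (0.888) and Smgc in saline replicate 4 (0.98).

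The response to 131I differed between 9:00 and the mean of 12:00 and 15:00, by limma on the difference itself, for 1230 probes. Among printed genes the difference in log2 response was 4.45 for Fhl1, 4.29 for Des, -2.21 for Nfil3, 1.84 for Per2 and 1.35 for Ccng1.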

How the results depend on the processing

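The 1495 regulated probes became 1065 with no background correction, 1236 under median scaling, where 51.5% were up against 34.6% otherwise, 1230 from the deposited normalized values, 1131 with no filter and 1180 in a fit of the 2 compared groups. They became 2497 with repeat arrays counted as replicates and 2927 at an adjusted p under 0.05. Leaving out 1 replicate gave 0 to 1350, with 0 without saline replicate 3 (limma, with 3809 at an unadjusted p under 0.05). Settings chosen after seeing this gave 1810 at an adjusted p under 0.05 and 903 in a fit of the 2 groups, both without saline replicate 3. The 1230 probes with a difference between times became 724 under median scaling, 2133 with repeat arrays as replicates, 3343 at an adjusted p under 0.05 and 2061 at that threshold without saline replicate 3, and 431 to 1351 with 1 replicate left out. The cause was not tested, except that thresholds of 0.05 admit more probes by construction. With the replicate number as a block, 1119 probes were regulated and 1004 differed between times. Same-numbered replicates correlated at 0.178, -0.037, -0.0635 and 0.00695 in their deviations, so the numbers were not taken to pair samples. Of 233 named genes, 8 changed sign in at least 1 setting, 0 of them among the 148 called, while 21 lost their call under median scaling, 46 in the fit of the 2 groups, and 26 to 148 with 1 replicate left out, most without saline replicate 3.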
